A study of Homo sapiens with 6 samples.

Results

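The 10 genes described here are PARP9, PARP10, PARP12, PARP14, DTX3L, SAMD9, SAMD9L, XAF1, EPSTI1 and DDX60. They were chosen by symbol as interferon-induced PARP enzymes, SAMD9 with its neighbour SAMD9L, and genes known to respond with them. Earlier results of these data were known when these genes and the lists set beside them were chosen. The members are 10 of the 16390 genes listed in the read count tables. RNA was sequenced from SW780, an established line of human bladder cancer cells treated as luminal in the study. The 3 RC48 libraries came from cells given RC48 at a concentration of 25 µg/ml, and the 3 Control libraries came from the matching control cells, which the labels call Control and describe no further. RC48 (disitamab vedotin) joins an antibody against ERBB2 to a toxin, monomethyl auristatin E, which blocks microtubules. The methods call the cells stable SW780, and what makes them stable, the exposure time and whether replicates are separate cultures are not given in the sources used here. The p-values therefore measure the spread between these libraries, which may be technical, in 1 cell line.

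Interferons bind receptors on the cell surface and signal through JAK1 and TYK2 to transcription factors such as ISGF3, of which STAT2 and IRF9 are parts. ISGF3 binds the interferon-stimulated response element in promoters and switches on a broad set of genes that restrict viruses and, in tumour cells, often mark inflammation or a response to damage. The PARP enzymes among them attach ADP-ribose to proteins, mostly as single units, whereas PARP1 and PARP2 build chains of it at broken DNA. SAMD9 and SAMD9L are large cytoplasmic proteins that block translation in virus-infected cells.

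By position, the genes form 2 close pairs. SAMD9 (chr7:93099513-93118023) and SAMD9L (chr7:93130055-93148369) lie on the minus strand 12031 bases apart. PARP9 (chr3:122527924-122564577, minus strand) and DTX3L (chr3:122564238-122575203, plus strand) run in opposite directions from a shared start region and overlap by 340 bases. PARP14 (chr3:122680618-122730840) follows on the plus strand of the same chromosome. PARP12 lies at chr7:140023744-140063721, XAF1 at chr17:6755447-6775647, EPSTI1 at chr13:42886388-42992271 and DDX60 at chr4:168216293-168318807. These are gene spans of GENCODE release v29 on GRCh38, the assembly that the submitters' processing notes name as hg38. The transcripts range from 3160 bases for EPSTI1 to 7915 bases for PARP14, and from 3 exons for SAMD9 to 38 for DDX60.

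The promoters are shown because the core of the response element, a pair of GAAA letters with any 2 bases between them, was found in most of them. RefSeq promoter windows (GRCh38.p14, 250 bases before to 50 after the start site) were held for 9 of the 10 genes. The 10 letters, read on either strand, were present in 7 of these 9, against 4.38% of the 27305 genes with a window and 3.57% of all 35116 windows. The windows of XAF1 and SAMD9L do not hold these exact letters, and PARP10 had no window. The motif of DTX3L and that of PARP9 are the same 10 bases, chr3:122564332-122564341, read from opposite strands of the shared start region. DDX60 has 2 copies, starting 88 and 53 bases before its RefSeq start site. In the sequences that follow, written 5′ to 3′ on the strand of the gene, capitals mark the motif or its reverse complement. A match of letters is a description and no evidence that a factor binds there.
PARP9, chr3:122564307-122564366 (minus strand): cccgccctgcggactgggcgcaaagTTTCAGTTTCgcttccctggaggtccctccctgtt
DTX3L, chr3:122564307-122564341 (plus strand): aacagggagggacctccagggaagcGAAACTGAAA
PARP12, chr7:140062952-140062986 (minus strand): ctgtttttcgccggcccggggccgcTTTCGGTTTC
PARP14, chr3:122680785-122680838 (plus strand): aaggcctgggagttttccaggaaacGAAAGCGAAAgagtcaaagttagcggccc
SAMD9, chr7:93118081-93118140 (minus strand): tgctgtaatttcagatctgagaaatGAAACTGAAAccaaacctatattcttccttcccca
EPSTI1, chr13:42992257-42992316 (minus strand): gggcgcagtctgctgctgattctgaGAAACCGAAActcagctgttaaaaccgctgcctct
DDX60, chr4:168318771-168318865 (minus strand): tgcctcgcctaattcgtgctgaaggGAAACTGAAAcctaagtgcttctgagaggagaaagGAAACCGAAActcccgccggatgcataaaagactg

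Each library held between 16453233 and 17988030 estimated counts, and the scarcest of the 10 genes, EPSTI1, had 138 counts summed over Control and 472 over RC48. SW780 RNA showed 11 of 12 urothelial and epithelial markers at a mean of 1 CPM or more, with GATA3 between 216.9 and 308.0 CPM, UPK3A at 0.547 CPM or less and KRT20 at 2.03 CPM or less. CPM are counts divided by the library's size, as adjusted by edgeR's TMM method. Of 9 leukocyte markers in the files, 2 (CD68 and ITGAM) reached 1 CPM as a mean over the libraries, the sum of the 9 was 17.9 to 18.4 CPM in Control and 22.6 to 42.2 in RC48, and PTPRC, which defines leukocytes, was at 0.0607 CPM or less. ITGAM reached that mean through RC48 alone, at 0.29 CPM or less in Control and 3.08 to 4.19 in RC48. CD68 was at 16.6 to 17.1 CPM in Control and 17.5 to 34.1 in RC48. Of 9 fibroblast and endothelial markers, 6 reached a mean of 1 CPM, with sums of 471.6 to 504.7 CPM in Control and 469.4 to 579.7 in RC48, while DCN and PDGFRB were at 0.118 CPM or less. The most abundant, COL3A1, was at 263.0 to 299.3 CPM in Control and 357.3 to 446.3 in RC48. LUM went the other way, from 165.6 to 171.2 CPM in Control to 67.9 to 114.1 in RC48. The part of these markers in the results was not tested. The RC48 libraries also differed from each other by the GC content of transcripts. All genes were split by GC content into 10 groups of equal size. In RC48 replicate 1, the group lowest in GC content had a median log2 ratio to the Control mean of −0.97 and the group highest in it 0.65. The same values were −0.40 and 0.24 in RC48 replicate 3, and 0.02 and 0.00 in RC48 replicate 2. The 10 genes span 36.0% GC (SAMD9) to 66.9% (PARP10), so results for these genes are given on the TMM scale and after removal of each library's GC trend.

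The mean level in RC48 was higher for 9 of these 10 genes, beside 6710 of all 13055 genes tested. XAF1 rose to 2.63 times and EPSTI1 to 3.38 times the Control level, and both passed the test among all 13055 genes (edgeR's quasi-likelihood test, Benjamini-Hochberg adjusted p under 0.05). These are 2 of the 10 genes, where 1.98% of all genes tested were called higher in RC48. PARP9, PARP10, PARP12 and PARP14 were at 1.35 to 1.62 times Control with no overlap between the groups and adjusted p-values of 0.0951 to 0.149. DDX60, DTX3L and SAMD9L had higher means and overlapping groups, and the mean of SAMD9 was lower. With the GC trend removed, 7 of the 10 genes passed, against 4.42% of all genes called higher, and the exceptions were DTX3L, SAMD9 and SAMD9L. In these bulk libraries a change in RNA per cell and a change in which cells were left cannot be told apart.

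**Figure D1:**
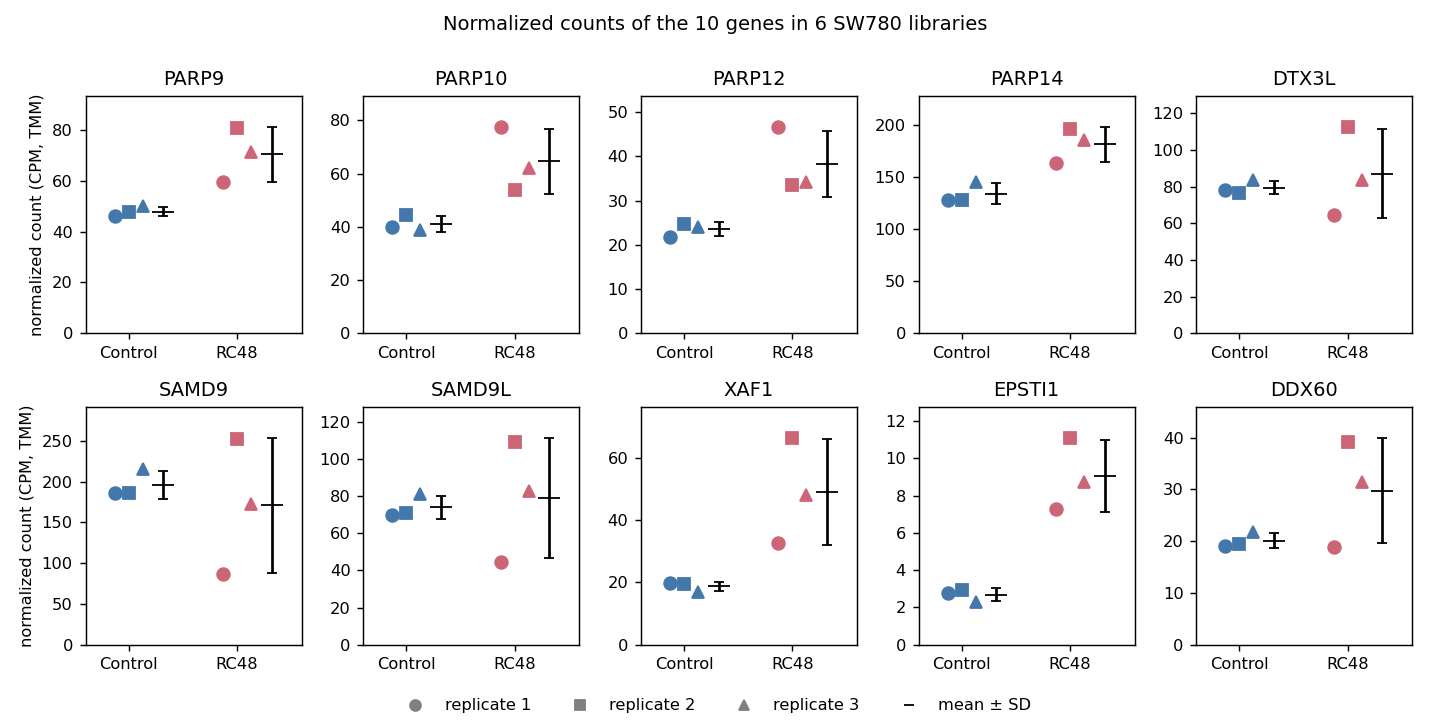
TMM-normalized counts (CPM, linear axes from 0) of the 10 genes in the 3 Control and 3 RC48 libraries, with replicate numbers as symbols and bars for mean ± SD. EPSTI1, XAF1 and the 4 PARP genes separate the groups, whereas SAMD9 in RC48 runs from 86.9 to 252.7 CPM around Control values of 186.1 to 215.9.

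EPSTI1, named for its part in the interaction of epithelial and stromal cells, had the largest fold change of the 10 genes and the lowest level. It stood at 2.78, 2.95 and 2.3 CPM in Control replicates 1, 2 and 3, and at 7.29, 11.1 and 8.74 CPM in RC48 replicates 1, 2 and 3. All RC48 libraries lay far above all Control libraries. The log2 fold change was 1.76 (SE 0.22, edgeR adjusted p = 0.00695), and 1.88 (SE 0.15, adjusted p = 2.7e-04) with the GC trend removed. Leaving out 1 Control library ended this call (adjusted p = 0.0599, 0.0506 and 0.0800 without Control replicates 1, 2 and 3).

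XAF1, which binds the apoptosis inhibitor XIAP and counters it, stood at 19.8, 19.3 and 17.0 CPM in Control and at 32.7, 66.4 and 48.0 CPM in RC48. The lowest RC48 library, replicate 1, was still above every Control library, and the RC48 libraries differed among themselves by 2.03 times. The log2 fold change was 1.39 (SE 0.25, edgeR adjusted p = 0.0349). After GC correction the RC48 libraries were at 40.5, 60.8 and 49.6 CPM, and the log2 fold change was 1.51 (SE 0.15, adjusted p = 8.7e-04). The call was lost without Control replicate 1, 2 or 3 (adjusted p = 0.170, 0.183 and 0.240), without RC48 replicate 3 (0.156) and with library sizes alone (0.0616). XIAP itself had a log2 fold change of −0.27 (SE 0.20, adjusted p = 0.399), and 0.03 after GC correction.

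Of the enzymes, PARP14 has 3 macrodomains that bind ADP-ribose beside the catalytic domain that transfers it. It was at 128.5, 128.5 and 145.7 CPM in Control and at 163.3, 196.3 and 185.4 CPM in RC48. Every RC48 library was higher, by a log2 fold change of 0.44 (SE 0.12, edgeR adjusted p = 0.149), and the GC-corrected change of 0.55 (SE 0.08) passed the test (adjusted p = 0.0051). PARP9, which has macrodomains and works as a complex with DTX3L, was at 46.3, 47.6 and 49.9 CPM in Control and at 59.4, 80.9 and 71.2 CPM in RC48. The groups did not overlap, and the log2 fold change was 0.56 (SE 0.15, adjusted p = 0.12). After GC correction PARP9 was at 72.4, 74.5 and 73.2 CPM in the RC48 libraries, which then differed by 1.03 times, and rose by a log2 fold change of 0.68 (SE 0.07, adjusted p = 9.3e-04).

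PARP10 (chr8:143977153-144012772, minus strand) and PARP12 are the members richest in GC, at 66.9% and 54.5%. PARP10, which adds single ADP-ribose units to its targets, was at 40.1, 44.5 and 38.7 CPM in Control and at 77.7, 54.0 and 62.0 CPM in RC48. PARP12, a zinc-finger enzyme with reported antiviral activity, was at 21.7, 24.8 and 24.0 CPM in Control and at 46.7, 33.5 and 34.2 CPM in RC48. For both, every RC48 library was above every Control library, and RC48 replicate 1 was the highest, whereas it was the lowest RC48 library for the other 8 genes. The log2 fold changes were 0.65 (SE 0.16, edgeR adjusted p = 0.106) for PARP10 and 0.70 (SE 0.17, adjusted p = 0.0951) for PARP12. GC correction made both changes smaller and more precise, at 0.32 (SE 0.08, adjusted p = 0.039) for PARP10 and 0.47 (SE 0.10, adjusted p = 0.0213) for PARP12.

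DDX60, a helicase linked to the sensing of viral RNA by RIG-I, was at 19.0, 19.5 and 21.8 CPM in Control and at 18.8, 39.1 and 31.5 CPM in RC48. RC48 replicate 1 lay below all Control libraries and the other two above them. The log2 fold change was 0.57 (SE 0.25, edgeR adjusted p = 0.266), and 0.32 (adjusted p = 0.258) without RC48 replicate 2. Limma on log2(TPM+1), which lacks that library, gave 0.15 (adjusted p = 0.631). After GC correction the Control libraries were at 17.0, 17.6 and 18.9 CPM and the RC48 libraries at 28.5, 33.8 and 34.2 CPM. On that scale the groups no longer overlapped, and DDX60 rose by a log2 fold change of 0.85 (SE 0.10, adjusted p = 0.00197). Its paralog DDX60L, which lies on the same strand with a gap of 37927 bases between the gene spans and has the similar GC content of 38.7%, had a log2 fold change of 0.03 (SE 0.25, adjusted p = 0.943), and 0.33 (SE 0.09, adjusted p = 0.0605) after GC correction.

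DTX3L, the ubiquitin ligase that partners PARP9, was at 78.0, 76.7 and 83.4 CPM in Control and at 64.4, 112.7 and 83.6 CPM in RC48. The RC48 libraries lay below, far above and just above the Control range. The log2 fold change of 0.13 (SE 0.20, edgeR adjusted p = 0.674) became 0.21 (SE 0.12, adjusted p = 0.288) after GC correction. SAMD9 was at 186.6, 186.1 and 215.9 CPM in Control and at 86.9, 252.7 and 173.1 CPM in RC48, with a log2 fold change of −0.20 (SE 0.33, adjusted p = 0.702). SAMD9L was at 70.2, 70.9 and 81.3 CPM in Control and at 44.8, 109.7 and 82.8 CPM in RC48, with a log2 fold change of 0.09 (SE 0.29, adjusted p = 0.84). For both, the RC48 libraries lay on both sides of the Control libraries, with replicate 1 lowest and replicate 2 highest.

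The GC-corrected values brought the RC48 libraries of the SAMD9 pair closer together and turned the direction of SAMD9. SAMD9 was then at 160.5, 161.7 and 179.7 CPM in Control and at 151.3, 206.4 and 195.8 CPM in RC48, and its log2 fold change was 0.14 (SE 0.12, edgeR adjusted p = 0.48). SAMD9L was at 62.3, 63.7 and 69.8 CPM in Control and at 69.8, 93.7 and 90.8 CPM in RC48, and its log2 fold change was 0.38 (SE 0.12, adjusted p = 0.0885). RC48 replicate 1 was again the lowest RC48 library for both. Without RC48 replicate 1, 7 of the 10 genes passed on the TMM scale, where 4.61% of all genes were called higher. Leaving it out and correcting for GC gave 0.26 (SE 0.08, adjusted p = 0.041) for SAMD9, 0.50 (adjusted p = 0.00154) for SAMD9L and 0.31 (adjusted p = 0.046) for DTX3L. In that fit all 10 genes passed, where 6.38% of all genes were called higher.

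**Figure D2:**
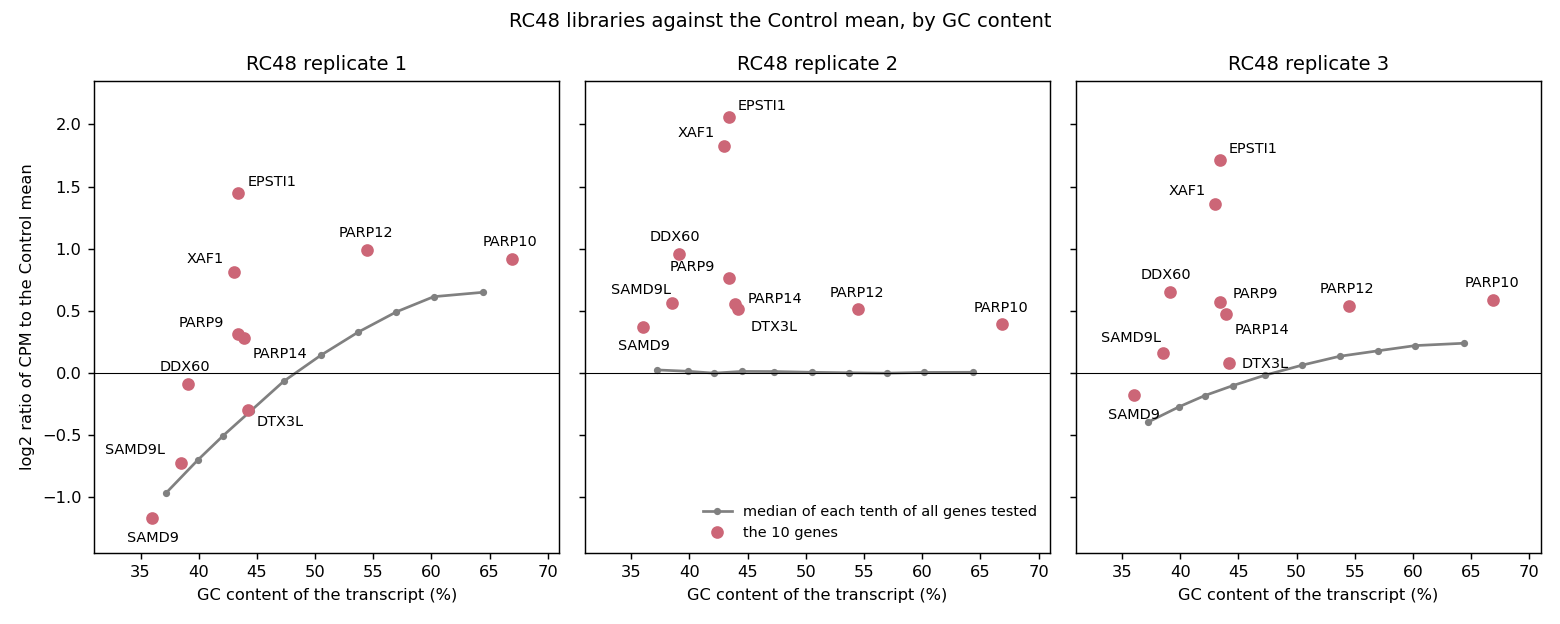
Log2 ratio of each gene's CPM in RC48 replicates 1, 2 and 3 to its Control mean (vertical) against the GC content of its transcript in percent (horizontal), with the grey line joining the medians of 10 groups of all genes ordered by GC content. In replicate 1 the line climbs from −0.97 to 0.65 and SAMD9 lies at −1.17, whereas in replicate 2 the line is flat and all 10 genes lie at 0.37 or more.

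The ratios of the members to Control differed between the single RC48 libraries. In RC48 replicate 2, which had no GC trend, log2 ratios to the Control mean ran from 0.37 for SAMD9 to 2.06 for EPSTI1. The medians of the 10 groups of all genes lay between −0.003 and 0.023 in that library. In RC48 replicate 1, SAMD9, SAMD9L, DTX3L and DDX60 were below the Control mean, at −1.17, −0.73, −0.30 and −0.09, and the other 6 were above it. In RC48 replicate 3, SAMD9 alone was below, at −0.18. The median SD of the 10 genes' log2 CPM over the RC48 libraries was 0.355 before and 0.135 after GC correction, against 0.105 and 0.085 in Control. The highest RC48 library exceeded the lowest by 2.91 times for SAMD9 before the correction and by 1.36 times after it, and for SAMD9L by 2.45 and 1.34 times.

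By the overlap of libraries, 6 of the 10 genes had every RC48 library above every Control library on the TMM scale, where 17.4% of all genes did, and 7 of 10 did after GC correction, where 14.3% did. For these the exact permutation test over libraries gave p = 0.1, two-sided, the smallest that 3 against 3 libraries allow. At an unadjusted p under 0.05 in the edgeR fit, 6 of the 10 genes were higher in RC48, against 11.9% of all genes. The median log2 fold change of the 10 genes was 0.56, and 0.51 after GC correction, beside 0.02 and −0.02 over all genes tested.

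**Figure D3:**
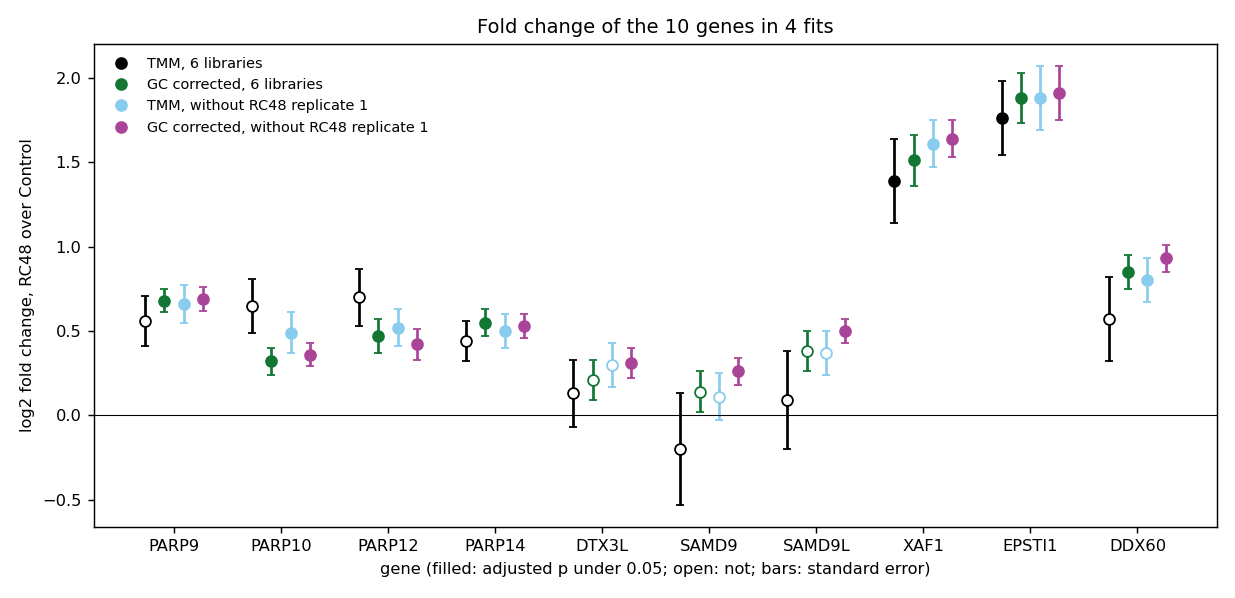
Log2 fold change of RC48 over Control with its standard error for the 10 genes in 4 edgeR fits, with filled points for an adjusted p under 0.05 and open points otherwise. XAF1 and EPSTI1 are filled in all 4 fits, and SAMD9 moves from −0.20 to 0.26 across them.

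Within a library, the ratio of 2 genes does not depend on how the library is scaled. Counts of PARP9 over DTX3L gave 0.594, 0.620 and 0.598 in Control and 0.922, 0.718 and 0.852 in RC48. The ratio was higher in every RC48 library, with a mean log2 ratio of −0.28 ± 0.184 against −0.73 ± 0.033 (SD, n = 3 each, exact permutation p = 0.1). The difference of 0.45 became 0.49 after GC correction, and the GC contents of this pair are alike, at 43.4% and 44.2%. The corrected ratios were 0.587, 0.613 and 0.590 in Control and 0.957, 0.711 and 0.861 in RC48, so the RC48 libraries still differed. On both scales RC48 replicate 1, with the steepest GC trend, was highest and replicate 2, with none, was lowest. What sets this order was not tested. Whether the counting used strand is not stated, so reads in the 340 bases shared by PARP9 and DTX3L may have been counted for either gene. Estimated counts of both genes were whole numbers, except PARP9 in RC48 replicate 3 and DTX3L in Control replicate 2 and RC48 replicate 3. The part of shared reads in the ratio was not tested.

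Counts of SAMD9 over SAMD9L gave 2.66, 2.62 and 2.65 in Control and 1.94, 2.3 and 2.09 in RC48. Here the ratio was lower in every RC48 library, with a mean log2 ratio of 1.07 ± 0.124 against 1.40 ± 0.01 (SD, n = 3 each, exact permutation p = 0.1). The difference was −0.33, and −0.24 after GC correction, where the RC48 ratios were 2.17, 2.20 and 2.15 and the Control ratios 2.58, 2.54 and 2.57. The difference kept its sign for both pairs in each alternative run. The transcripts of SAMD9 and SAMD9L share 72.6% of 6110 aligned bases with a longest identical run of 32 bases, and their estimated counts were whole numbers in every library.

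**Figure D4:**
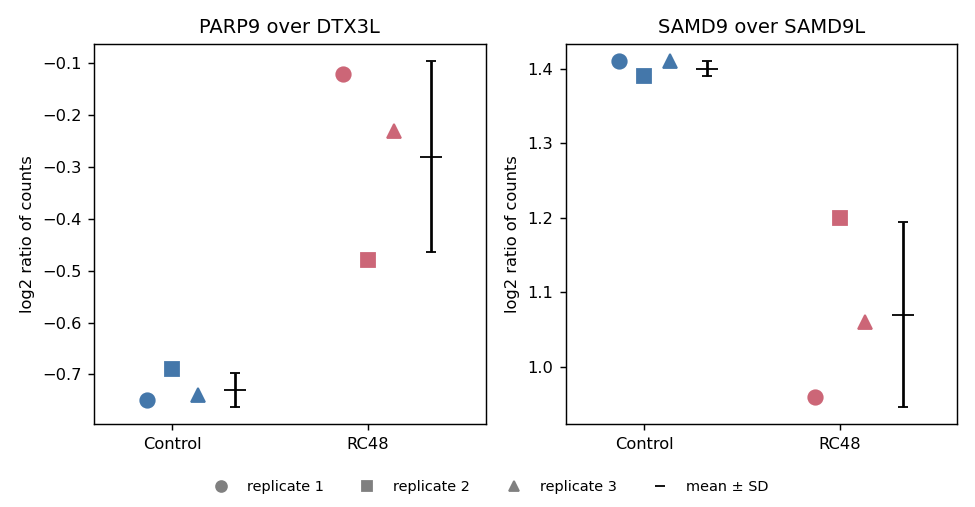
Log2 ratio of counts within each library for PARP9 over DTX3L and SAMD9 over SAMD9L, with replicate numbers as symbols and bars for mean ± SD. The 3 Control libraries cluster near −0.73 and 1.40, and every RC48 library lies above them in the first panel and below them in the second.

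Levels of different genes were compared by TPM, which is scaled for transcript length, in the Control libraries. SAMD9 was the most abundant of the 10 genes, at 53.2 ± 7.56 TPM (SD, n = 3), followed by PARP14 at 29.59 to 36.74 TPM. DTX3L at 23.91 to 28.46, PARP9 at 23.26 to 27.80, PARP10 at 21.38 to 23.70 and SAMD9L at 18.62 to 22.98 TPM came next, and each overlapped its neighbours in this order. PARP12 at 15.2 ± 1.44, XAF1 at 10.2 ± 0.406, DDX60 at 6.19 ± 0.797 and EPSTI1 at 1.67 ± 0.136 TPM followed without overlap. The genes with the largest fold changes, EPSTI1 and XAF1, were thus among the 3 lowest in Control cells.

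The rest of the PARP family held no gene that passed in edgeR over all 6 libraries. On the TMM scale PARP9, PARP10, PARP12 and PARP14 did not pass either (edgeR adjusted p from 0.0951 to 0.149). After GC correction they did (adjusted p from 9.3e-04 to 0.039). Of 13 other genes of the PARP family, ZC3HAV1 among them, PARP6 was too low to test. Of the 12 tested none passed the edgeR test on either scale, where 2.21% of all genes passed in 1 direction or the other on the TMM scale and 8.1% after GC correction. At an unadjusted p under 0.05, 2 were higher (PARP3 and PARP8) and 1 was lower (PARP1) on the TMM scale. Of all genes, 11.9% were higher at that threshold. DESeq2, which called 744 of 13055 genes, called 0 of the 12. Voom with library weights, which called 8018 genes in all, called 2 higher and 4 lower. In the GC-corrected fit without RC48 replicate 1, where all 10 members passed, PARP8 was called higher and PARP1 lower (log2 fold change −0.26, adjusted p = 0.0254). That fit called 1790 genes in all. Without RC48 replicate 2, where 3726 genes were called in all, PARP3 was called higher and TNKS2 lower. Limma on log2(TPM+0.1), which called 2829 genes, called TNKS2 lower. On the TMM scale 2 of the 12 had higher and 10 lower means, with a median log2 fold change of −0.16, and after GC correction 4 were higher and 8 lower, with a median of −0.05. PARP1, the main enzyme of chain formation at DNA breaks, was at 408.0, 409.0 and 424.9 CPM in Control and at 297.8, 358.3 and 362.4 CPM in RC48. Every RC48 library was lower, with a log2 fold change of −0.29 (SE 0.12, adjusted p = 0.253), and −0.36 (SE 0.10, adjusted p = 0.0713) after GC correction. Of 6 enzymes that remove ADP-ribose (PARG, ADPRS, ADPRH, OARD1, MACROD1 and MACROD2), none passed in edgeR on either scale, and 2 had higher and 4 lower means. At an unadjusted p under 0.05, 1 of them was higher on the TMM scale, beside 11.9% of all genes. DESeq2 called 0, and voom called 2 higher and 3 lower. Limma on log2(TPM+1), which called 2894 genes in all, limma on log2(TPM+0.1) and edgeR without RC48 replicate 2 called 1, ADPRS, as higher.

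**Figure D5:**
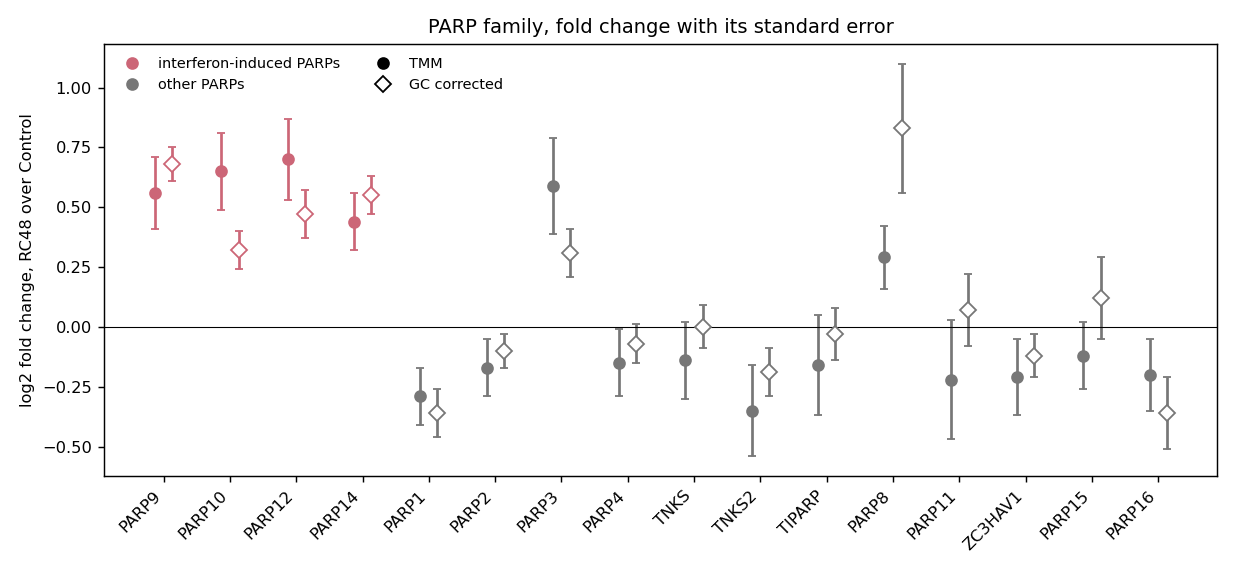
Log2 fold change of RC48 over Control with its standard error for the 4 PARP members and the 12 other PARP family genes tested, on the TMM scale (filled circles) and after GC correction (open diamonds). The 4 members lie between 0.32 and 0.70 on both scales, and PARP1 lies at −0.29 and −0.36.

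Among relatives and binding partners, DTX2, a ubiquitin ligase of the same Deltex family as DTX3L, was the member of its list that passed. Its mean was 50.4 ± 4.5 CPM in Control and 97.5 ± 18.6 in RC48 (SD, n = 3), so that DTX2 rose by 0.95 on the log2 scale (SE 0.17, edgeR adjusted p = 0.0323), and by 0.62 (adjusted p = 0.00267) after GC correction. Leaving out RC48 replicate 3 or 1 Control library ended this call. Of the 7 genes of this list that were tested, 5 had higher means, beside 6710 of all 13055 genes. The 1 that passed stands beside 1.98% of all genes called higher. After GC correction 3 passed, where 4.42% of all genes were called higher. They were DTX2 with DDX58 (the RIG-I sensor, log2 fold change 0.65, adjusted p = 0.00504) and IFIH1 (the MDA5 sensor, 0.88, adjusted p = 0.00281).

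Most factors that carry the interferon signal had higher means in RC48. Of 11 receptors, kinases and transcription factors, 10 had higher means, beside 6710 of all 13055 genes, and 3 passed the edgeR test as higher, beside 1.98% of all genes. IRF9, the DNA-binding part of ISGF3, rose from 24.5 ± 0.413 to 75.2 ± 17.4 CPM (SD, n = 3 each), by a log2 fold change of 1.62 (SE 0.18, adjusted p = 0.00446, and 0.0645 without Control replicate 3). STAT2 rose from 88.5 ± 8.82 to 143.3 ± 8.35 CPM (0.70, SE 0.12, adjusted p = 0.0346), a call lost with library sizes alone and with RC48 replicate 3 or any 1 Control library left out. IRF7, which drives interferon genes, rose from 3.22 ± 0.297 to 8.77 ± 1.66 CPM (1.44, SE 0.20, adjusted p = 0.0117), a call lost with the same libraries left out. After GC correction 6 of the 11 passed as higher, beside 4.42% of all genes, and the log2 fold changes were 1.37 for IRF9, 0.56 for STAT2 and 1.12 for IRF7.

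Of 50 other interferon-induced genes, IFITM2 was too low to test, 46 of 49 had higher means and 23 passed the edgeR test, all higher in RC48, with a median log2 fold change of 0.85. After GC correction 35 of the 49 passed, all higher, with a median of 0.77. Over all genes 6710 of 13055 had higher means, and 1.98% were called higher on the TMM scale and 4.42% after GC correction. The 6 with the smallest p-values were MX1, MX2, RSAD2, IFI6, IFI27 and IFI44L, antiviral effectors and small induced proteins of the interferon response. Their log2 fold changes were 2.10 for MX1, 2.02 for MX2, 2.74 for RSAD2, 1.82 for IFI6, 3.12 for IFI27 and 2.67 for IFI44L, with adjusted p-values from 2.3e-04 to 0.00181. After GC correction they were 1.94 for MX1, 1.95 for MX2, 2.95 for RSAD2, 2.81 for IFI27 and 3.03 for IFI44L. On the TMM scale each of these values was above the 1.76 of EPSTI1, the highest of the 10 genes, and after GC correction IFI6 (1.58) was below the 1.88 of EPSTI1. These differences were not tested. Of these 50 genes, 6 also stand in another list, among them STAT2, IRF9, IRF7, IFIH1 and DDX58. Calls of these genes are therefore counted in both lists.

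The profile of the 10 genes over the libraries, the mean of their log2 CPM after centring each gene, was −0.31, −0.26 and −0.24 in Control and −0.04, 0.55 and 0.30 in RC48. Of 10983 other genes with at least 5 CPM, the 5 with the highest Pearson's r to this profile over the 6 libraries were ATP1B1 (0.998), IFIH1 (0.997), OTUD1 (0.996), GALNT5 (0.996) and IVNS1ABP (0.993). With 6 libraries in 2 groups these r values are a description, and the libraries share the GC trends given above. IFIH1 was at 15.1, 15.0 and 16.3 CPM in Control and at 19.4, 33.6 and 25.8 CPM in RC48, the same order of RC48 libraries as for XAF1 and EPSTI1.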

How the data were processed

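Total RNA of SW780 cells was sequenced in 6 libraries (3 Control, 3 RC48). The authors filtered reads with SOAPnuke, mapped them with Bowtie2 to a reference gene sequence (hg38 in the submitters' processing notes) and deposited estimated counts for each gene from RSEM, not normalized, for all 6 libraries, and TPM values for 5. RC48 replicate 2's TPM was not used here. Versions and the annotation are not given in the sources used here. Library totals were 17026155, 16973915 and 16453233 in Control and 17821737, 17271978 and 17988030 in RC48, and 11.7% to 15.0% of a library's estimated counts were not whole.

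After rounding of the estimated counts and filterByExpr, 13055 genes were scaled by TMM and compared between the groups by the quasi-likelihood test of edgeR 4.0.16 (R 4.3.3, limma 3.58.1). P-values were adjusted over these genes by the method of Benjamini and Hochberg, and 0.05 was the threshold. The study's methods name limma on log2(TPM+1), which was run as an alternative because 5 libraries have TPM. Log2 CPM took a pseudocount of 0.5. For the GC correction, a loess curve (span 0.3) was fitted in each library to the deviation of log2 CPM against the GC content of GENCODE v29 transcripts, known for 16321 genes (99.6%), and entered edgeR as an offset. Replicates were compared by chi-square over their counts, and none agreed within sampling noise (1.5 to 140 per degree of freedom). Same-numbered Control and RC48 libraries deviated together with r of 0.026, −0.161 and −0.015, so numbers were not taken to pair libraries. The procedure was tested on simulated data.

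The 10 genes and the other lists were chosen with earlier results of these data known. Of each other list, the genes named are those called in the main test, at most 6 by smallest p-value, plus PARP1, STAT2 and IRF9. Another gene that this rule names is not reported here. IFIH1, DDX58, DDX60L, XIAP, PARP3, PARP8, TNKS2 and ADPRS were named in addition after their values were seen. The 5 genes most like the members had the highest Pearson's r among genes of at least 5 CPM. The alternatives were DESeq2 1.42.0, limma's voom with library weights, limma on log2(TPM+1) and log2(TPM+0.1), no filter, a minimum of 10 counts in every library, library sizes alone, RLE size factors, corrections for GC content and length, a replicate block, and each library left out. Python 3.11.15, scipy 1.17.1 and matplotlib 3.10.9 served for permutation tests and figures.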

Additional observations from a re-analysis of the deposited data

How the results depend on the processing

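Of the 10 genes, 2 were called on the TMM scale, where 258 of all 13055 genes were called higher. The number was 5 with DESeq2, 8 with voom and library weights, 4 with limma on log2(TPM+1) and on log2(TPM+0.1), and 1 with library sizes alone. In these fits 536, 3972, 821, 785 and 225 of all genes were called higher. With the GC correction and with the GC and length correction it was 7, beside 577 and 675 of all genes. It was 10 with the GC correction and without RC48 replicate 1, beside 839 of 13147 genes. Without each Control library in turn it was 0, where 69, 75 and 66 of all genes were called higher. Without RC48 replicates 1, 2 and 3 it was 7, 5 and 1, where 606, 1862 and 88 of all genes were. The replicate block left the number of members at 2, and with the GC correction the block gave 5, where 277 and 433 of all genes were called higher. Over all genes the block gave 331 calls, against 288 without it, and it ended the call of STAT2 (adjusted p = 0.0572). In 2 separate fits, with the GC correction and without RC48 replicate 1, 4.42% and 4.61% of all genes were called higher. There calls were 3 and 3 of 7 relatives and partners (1 in the main test), 6 and 7 of 11 signalling factors (3), and 35 and 37 of 49 other interferon-induced genes (23).

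Over all genes, 288 calls (89.6% higher in RC48) became 744 with DESeq2 (72.0%), 8018 with voom (49.5%), 2894 and 2829 with limma (28.4% and 27.7%), 1058 with the GC correction (54.5%), 1308 with length added (51.6%), 728 with the block and GC correction (59.5%), 1790 with the GC correction and without RC48 replicate 1 (46.9%), and 68 to 3726 with 1 library left out. The causes of these differences were not tested. Limma on TPM lacked RC48 replicate 2, and its median log2 fold changes over all genes were −0.09 and −0.11.

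The direction of 3 genes turned. DTX3L had log2 fold changes of −0.21 and −0.22 with limma and −0.10 to 0.30 with 1 library left out, and SAMD9L had −0.38, −0.40 and −0.22 to 0.37, both lowest without RC48 replicate 2. SAMD9 had −0.76 and −0.78 with limma (adjusted p = 0.0731 and 0.0741), 0.14 with the GC correction, 0.16 with length added, 0.13 with the block and GC correction, −0.59 to 0.11 with 1 library left out (highest without RC48 replicate 1), and 0.26 with the GC correction and without that library. Limma on log2(TPM+1) also gave lower values for DDX60 (0.15), PARP14 (0.26), PARP9 (0.35), XAF1 (0.87) and EPSTI1 (1.07). The other 7 genes kept their direction in all 19 alternatives. EPSTI1 was called in 16 of these, XAF1 in 14, PARP10 and PARP12 in 9 each, PARP9 in 8, PARP14 and DDX60 in 6 each, SAMD9L in 2, and DTX3L and SAMD9 in 1 each. With 3 libraries per group, the spread between RC48 libraries limits the precision.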
